A study of Rattus norvegicus with 9 samples.

Results

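The miRNAs described here come from the 7 hairpins of the Dlk1-Dio3 imprinted locus that lie between the non-coding RNA genes Meg3 and Rian, on or near the strand opposite the gene Rtl1, with miR-370 included. The 9 mature miRNAs were listed by name and place in the locus: miR-493-5p, miR-337-5p, miR-337-3p, miR-433-3p, miR-127-3p, miR-127-5p, miR-434-3p, miR-136-5p and miR-370-3p. All 9 were present among the 726 miRNAs counted, and 8 of them were among the 439 with enough reads to be tested. miR-337-3p was not. Small RNA was sequenced in primary cultures of wild-type rat cartilage progenitor cells from condylar cartilage, the cartilage of the jaw joint. The P3 group held cells cultured to passage 3 and served as the control, P9 held cells cultured to passage 9 as a model of replicative senescence, and FFSS held passage 3 cells under flow fluid shear stress, the drag of moving medium, as a model of degeneration. Each group had 3 libraries. The labels do not say whether libraries of a group came from separate cultures or animals, so p-values speak only of the spread among these libraries, which could be technical.

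The Dlk1-Dio3 locus is imprinted. The chromosome inherited from the mother expresses its non-coding RNAs, among them Meg3, the Rtl1 antisense transcript, Rian and Mirg, together with the miRNAs cut from them, and the chromosome inherited from the father expresses the protein-coding genes Dlk1, Rtl1 and Dio3. miRNAs cut from the Rtl1 antisense transcript pair perfectly with the Rtl1 messenger RNA, which lets them direct its cleavage, and Rtl1 itself is a retrotransposon-derived gene needed in the placenta and in muscle. A large cluster of further miRNAs, from miR-379 to miR-410, lies farther along the locus.

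In RefSeq (build GRCr8) the 7 hairpins all lie on the plus strand of chromosome 6, in the order Mir493, Mir337, Mir433, Mir127, Mir434, Mir136 and Mir370, and 4 of them (Mir433, Mir127, Mir434 and Mir136) lie inside the span of Rtl1. Mir493 opens the series at chr6:134314731-134314814 and Mir370 closes it at chr6:134354491-134354569. The authors' build was Rnor_6.0, so these positions apply to GRCr8 only. Mature sequences of 7 of the 9 miRNAs were matched by name in RefSeq and are shown because the seed, bases 2 to 8 in capitals, sets most of a miRNA's target choice.
rno-miR-493-5p: uUGUACAUgguaggcuuucauu
rno-miR-337-5p: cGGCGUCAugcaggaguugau
rno-miR-337-3p: uUCAGCUCcuauaugaugccuuu
rno-miR-433-3p: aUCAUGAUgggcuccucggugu
rno-miR-127-3p: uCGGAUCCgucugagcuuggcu
rno-miR-434-3p: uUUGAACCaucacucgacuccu
rno-miR-370-3p: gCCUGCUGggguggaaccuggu
The 7 seeds are all different, and each is held by 1 of the 724 mature rat sequences in the RefSeq table. So these miRNAs share a genomic neighbourhood but no seed.

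miRNAs annotated on the opposite strand bear on what 2 of these values mean. miR-3543 is complementary to all 22 bases of miR-434-3p, and miR-3544 to 18 of the 21 bases of miR-337-5p, as the capitals mark in each pair.
rno-miR-434-3p: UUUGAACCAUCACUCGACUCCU
rno-miR-3543: cAGGAGUCGAGUGAUGGUUCAAA
rno-miR-337-5p: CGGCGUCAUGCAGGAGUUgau
rno-miR-3544: AACUCCUGCAUGACGCCGuuccc
The deposited counts of miR-434-3p and miR-3543 were identical in all 9 libraries, so reads of these complementary sequences cannot be told apart here and the miR-434-3p values are uncertain to that extent. miR-3544 had its own counts, 1 to 14 reads per library, beside 56 to 1106 for miR-337-5p.

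The most abundant of the 9 was miR-127-3p. In the 97-base hairpin of miR-127 it forms the 3′ arm, shown in capitals.
miR-127 hairpin: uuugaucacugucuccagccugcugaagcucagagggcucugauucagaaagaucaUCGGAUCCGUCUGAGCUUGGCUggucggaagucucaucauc
This 1 product held 76.0% to 83.7% of the reads of the 9 miRNAs in each library. Together the 9 summed to 2448 to 3706 CPM (counts scaled to the library's miRNA total) in P3, to 2612 to 3296 CPM in P9, and to 478, 1270 and 1390 CPM in FFSS replicates 1, 2 and 3. Without miR-127-3p the sums were 419 to 603 CPM in P3, 566 to 658 CPM in P9 and 112 to 266 CPM in FFSS. Both sums were lower in every FFSS library than in every P3 and P9 library.

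P3 libraries held 7522702 to 8862560 miRNA reads and P9 libraries 7614513 to 8177357, while FFSS replicates 1, 2 and 3 held 2878910, 7082142 and 3896403. P9 replicate 3 stood apart from its group. Its log CPM correlated across miRNAs at 0.963 and 0.969 with the other P9 libraries and at 0.976 with P3 replicate 2. Pairs within P3 gave 0.987 to 0.994. FFSS replicate 1 also stood apart, at 0.967 with FFSS replicate 2 and 0.977 with FFSS replicate 3. FFSS replicates 2 and 3 correlated at 0.990, and FFSS replicate 2 with P3 replicate 1 at 0.975. The cartilage miRNAs miR-140-5p, miR-140-3p, miR-455-5p and miR-455-3p summed to 4150 to 7370 CPM in P3, 2590 to 3847 in P9 and 6077 to 7202 in FFSS. Of these 4 miRNAs 0 were called in FFSS or in P9 against P3, and miR-140-3p alone averaged 4810 CPM in P3. In these bulk samples fewer cells of a type and less RNA per cell cannot be told apart.

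**Figure D1:**
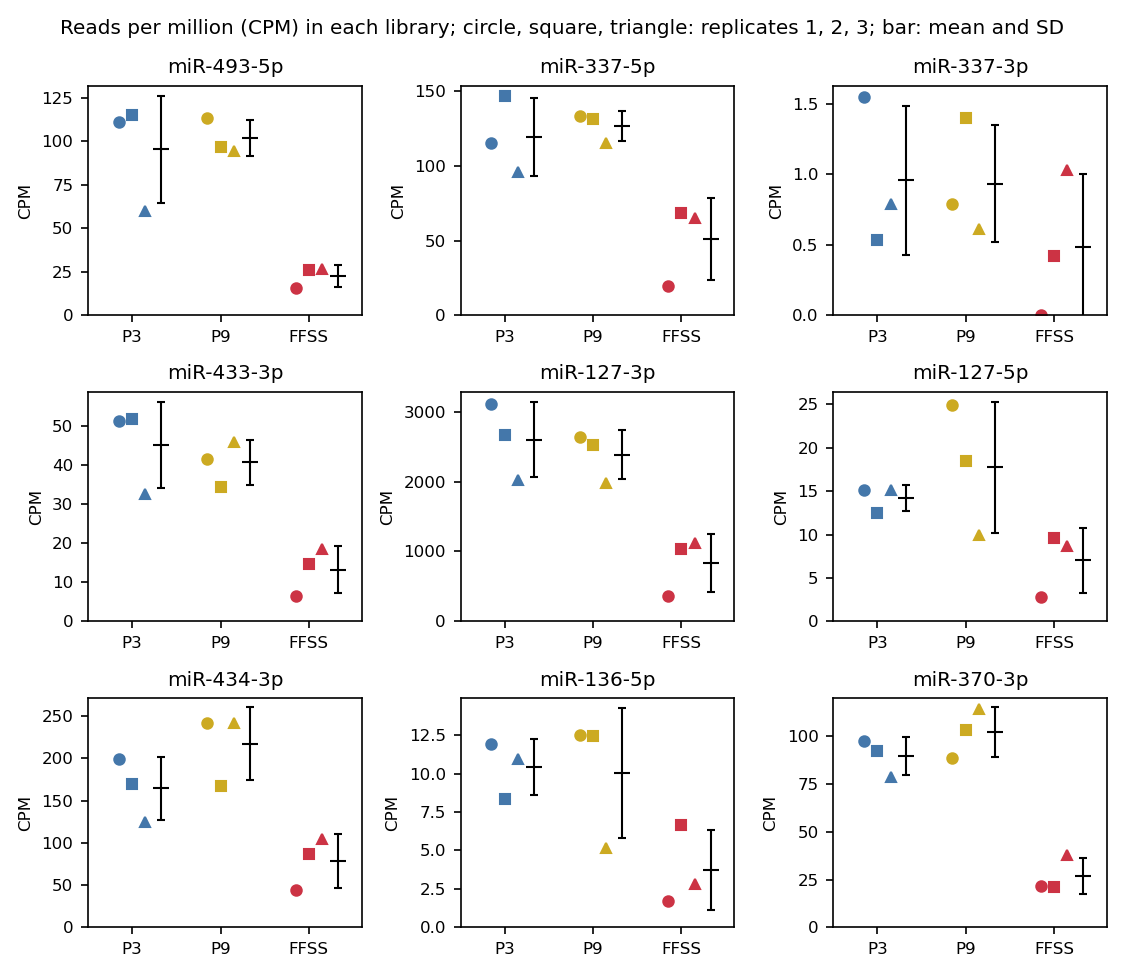
Level of each of the 9 miRNAs in CPM, 1 panel each on its own linear axis from 0, with 1 point per library for P3, P9 and FFSS (circle, square and triangle for replicates 1, 2 and 3) and the group mean with its SD beside them. For the 8 tested miRNAs the FFSS points lie below all P3 points, and the P9 points overlap the P3 points.

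Shear stress was compared with its passage 3 control to describe the mechanical model. Of the 8 tested miRNAs 6 fell: miR-493-5p, miR-370-3p, miR-433-3p, miR-127-3p, miR-337-5p and miR-434-3p. miR-127-5p and miR-136-5p did not pass the test. The median log2 fold change of the 8 was -1.55, against 0.02 over all 439 miRNAs, of which 13.7% were called lower by the same test (edgeR quasi-likelihood, Benjamini-Hochberg adjusted p under 0.05). Of all miRNAs 60 were called lower, and 33 with P3 replicate 1 left out, 38 with P3 replicate 2, 32 with FFSS replicate 3 and 94 with P9 replicate 3. All 8 had every FFSS library below every P3 library, a pattern found in 22.6% of all tested miRNAs.

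miR-493-5p, from the first of the 7 hairpins on the Meg3 side, was read at 111, 115 and 60.03 CPM in the P3 libraries, 114, 96.9 and 94.8 in P9, with 15.6, 25.8 and 26.7 in FFSS. The FFSS libraries were the 3 lowest, while P3 replicate 3 was below all P9 libraries. Its mean fell from 95.5 ± 30.8 to 22.7 ± 6.15 CPM (SD, n = 3; log2 fold change -2.12, SE 0.33, edgeR adjusted p = 0.00636), which left 23.8% of the P3 level. Its drop was the steepest of the 8. The opposite arm, miR-493-3p, was rarer and fell from 20.5 ± 2.02 to 5.01 ± 1.24 CPM (-2.10, SE 0.37, edgeR adjusted p = 0.00674).

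The neighbouring hairpin gives miR-337-5p and miR-337-3p. For miR-337-5p the libraries gave 116, 147 and 95.6 CPM in P3, 133, 132 and 115 in P9, with 19.5, 68.3 and 65.4 in FFSS. FFSS replicate 1 was far below the other FFSS libraries, and even the highest of these was below P3. From 119 ± 25.9 CPM the mean fell to 51.1 ± 27.4 CPM (SD, n = 3; log2 fold change -1.30, SE 0.40, edgeR adjusted p = 0.0399). Leaving out P3 replicate 1 (adjusted p = 0.0630), P3 replicate 2 (0.0936) or FFSS replicate 3 (0.0938) ended this call, which held in 19 of 24 alternatives. miR-337-3p, the other arm, had only 13, 4 and 7 reads in P3, 6, 11 and 5 in P9, with 0, 3 and 4 in FFSS. Its groups overlapped in reads, and with 0 reads FFSS replicate 1 allows up to 1.04 CPM (3 counts, counting error only). At this depth no difference was detectable (FFSS against P3 without the filter on low counts: log2 fold change -1.05, SE 0.84, edgeR adjusted p = 0.452).

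miR-433-3p lies inside the Rtl1 span. Its P3 libraries stood at 51.4, 51.7 and 32.5 CPM, its P9 libraries at 41.6, 34.4 and 46.0 and its FFSS libraries at 6.60, 14.7 and 18.5. P3 and P9 overlapped, and FFSS lay below both. It fell from 45.2 ± 10.99 to 13.3 ± 6.07 CPM (SD, n = 3; log2 fold change -1.83, SE 0.37, edgeR adjusted p = 0.00840).

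miR-127-3p, known for its perfect match to Rtl1 and for repressing the transcription factor gene Bcl6, was read at 3103, 2671 and 2029 CPM in P3, 2638, 2525 and 1984 in P9, with 366, 1036 and 1124 in FFSS. Again FFSS replicate 1 was the lowest library and no FFSS library reached the lowest P3 or P9 library. The mean fell from 2601 ± 540 to 842 ± 415 CPM (SD, n = 3; log2 fold change -1.69, SE 0.34, edgeR adjusted p = 0.00797). Its rare partner arm miR-127-5p had 15.1, 12.5 and 15.1 CPM in P3, 25.0, 18.4 and 9.91 in P9, with 2.78, 9.60 and 8.73 in FFSS. Here the highest FFSS library came close to the lowest P9 library. The difference from P3 did not pass the test (14.2 ± 1.51 against 7.04 ± 3.71 CPM, SD, n = 3; -1.04, SE 0.44, edgeR adjusted p = 0.111), and it passed without P9 replicate 3 (adjusted p = 0.0314).

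miR-434-3p, with the uncertainty over miR-3543 given above, had 199, 169 and 125 CPM in P3, 242, 168 and 242 in P9, with 43.8, 87.3 and 105 in FFSS. All FFSS libraries were below all P3 and P9 libraries. It fell from 164 ± 37.1 to 78.7 ± 31.5 CPM (SD, n = 3; log2 fold change -1.12, SE 0.33, edgeR adjusted p = 0.0350), a call that ended on leaving out P3 replicate 1 (adjusted p = 0.0820), P3 replicate 2 (0.0787) or FFSS replicate 3 (0.0692). Its partner arm miR-434-5p, the more abundant of the pair, fell from 373 ± 62.0 to 135 ± 81.6 CPM (-1.54, SE 0.45, edgeR adjusted p = 0.0341), a call that ended on leaving out the same libraries (0.0630, 0.0756 and 0.0692 in that order).

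miR-136-5p was among the rarest, at 11.9, 8.37 and 10.9 CPM in P3, 12.5, 12.5 and 5.14 in P9, with 1.74, 6.64 and 2.82 in FFSS. FFSS replicate 2 exceeded P9 replicate 3, the 1 overlap of FFSS with another group among the 8. FFSS stood at 3.73 ± 2.57 CPM against 10.4 ± 1.82 in P3 (SD, n = 3; log2 fold change -1.41, SE 0.50, edgeR adjusted p = 0.0633). It passed without P9 replicate 3 (-1.47, adjusted p = 0.0174) or FFSS replicate 2 (-2.32, 0.0126). The opposite arm miR-136-3p stood at 33.6 ± 4.75 CPM in P3 and 14.9 ± 6.62 in FFSS (-1.20, SE 0.40, edgeR adjusted p = 0.0513), and passed without P9 replicate 1 (0.0397), P9 replicate 3 (0.0115) or FFSS replicate 2 (0.0208).

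miR-370-3p comes from the last of the 7 hairpins, on the far side from Meg3. Its libraries gave 97.7, 92.5 and 78.8 CPM in P3, 88.6, 104 and 114 in P9, with 21.9, 20.9 and 37.7 in FFSS. Unlike the other 7, its lowest FFSS library was replicate 2 and not replicate 1. It fell from 89.7 ± 9.80 to 26.8 ± 9.44 CPM (SD, n = 3; log2 fold change -1.81, SE 0.31, edgeR adjusted p = 0.00636). The calls on miR-370-3p, miR-493-5p, miR-433-3p and miR-127-3p held in all 24 alternatives.

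**Figure D2:**
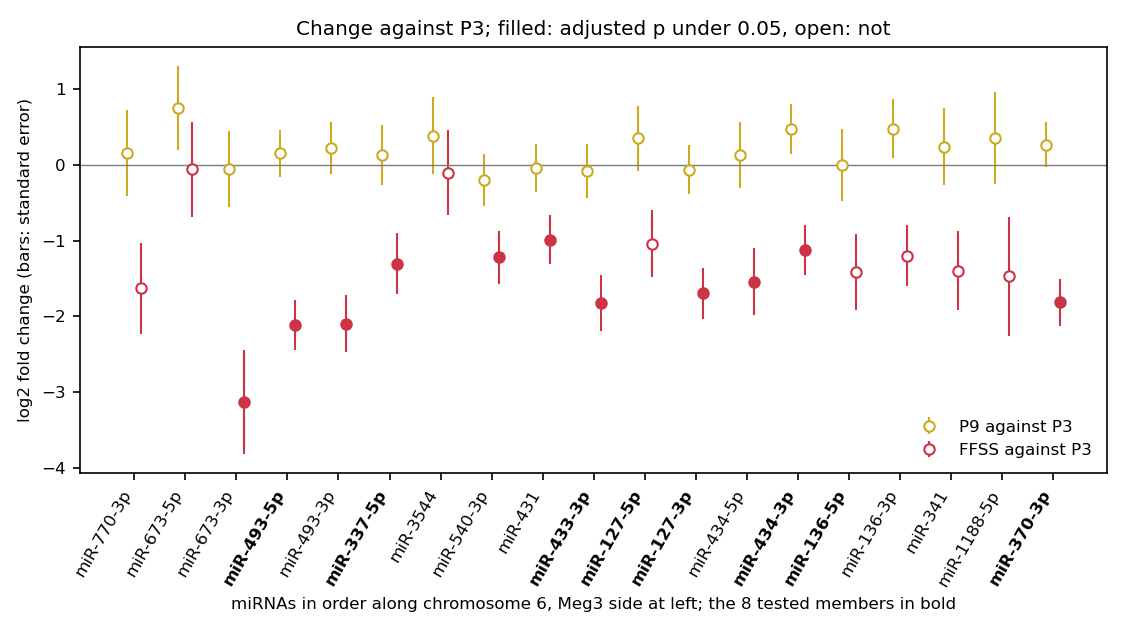
Log2 fold change with its SE for each tested product between Meg3 and Rian, in order along chromosome 6, for FFSS against P3 and P9 against P3, filled where the edgeR adjusted p was under 0.05. For the 8 miRNAs named in bold the FFSS values run from -2.12 to -1.04 and the P9 values from -0.08 to 0.47.

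Depth and some marker sums of other cells differed between the shear-stress group and P3. Thinning all libraries to 2878910 reads, the smallest total, left 6 of the 8 called lower, beside 51 of all 378 miRNAs then tested. Summed miRNA markers were higher in every FFSS library than in every P3 library for blood (167 to 592 against 75.7 to 156 CPM, with miR-144-3p at 0 in P3), muscle (189 to 538 against 141 to 158), liver (15.5 to 51.4 against 9.87 to 11.7) and endothelium (556 to 695 against 386 to 406). Of the blood list 1 of 4 tested markers rose (miR-142-5p), of muscle 0 of 4, of liver 0 of 1 and of endothelium 0 of 2. Epithelial markers summed to 81.1 to 102 CPM in P3 and 90.4 to 226 in FFSS, with 1 of 6 higher (miR-200b-3p), and nervous system markers to 747 to 1566 and 623 to 1653, with 1 of 4 higher (miR-9a-5p). Of the 5 mesenchyme and fibroblast markers miR-145-5p fell, and their sum was 123696 to 135424 CPM in P3 and 88414 to 144624 in FFSS. In P9 the sums were 69.5 to 307 CPM for blood and 151 to 534 for muscle. Those for liver were 3.43 to 22.9 and for endothelium 275 to 491, and each of these P9 ranges overlapped P3. For epithelium the P9 sums were 25.2 to 77.7 CPM, below every P3 library, with 0 of 6 tested markers called. Nervous system sums were 993 to 2423 in P9 and overlapped P3. For mesenchyme and fibroblasts they were 165042 to 249573, above every P3 library, with 1 of 5 markers called higher. The part of these cells in the result was not tested.

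Passage 9 was compared with the same passage 3 libraries to describe replicative senescence. None of the 8 tested miRNAs was called: edgeR, DESeq2 and limma-voom each called 0 of 8, and 0 of 8 had an unadjusted p under 0.05, while edgeR called 7.29% of all miRNAs in either direction. These 32 calls became 16 with P3 replicate 1 or P3 replicate 3 left out, 20 with P9 replicate 1, 21 with P9 replicate 2 and 51 with P9 replicate 3. P9 and P3 libraries overlapped for all 8, and the groups did not overlap for 25.3% of all tested miRNAs. miR-434-3p had the largest difference, at 217 ± 43.0 CPM in P9 against 164 ± 37.1 in P3 (SD, n = 3; log2 fold change 0.47, SE 0.32, edgeR adjusted p = 0.506). miR-127-3p stood at 2382 ± 350 CPM in P9 (-0.06, SE 0.33, edgeR adjusted p = 0.956) and miR-370-3p at 102 ± 13.0 CPM (0.27, SE 0.30, edgeR adjusted p = 0.729). The remaining log2 fold changes were 0.35 for miR-127-5p, 0.15 for miR-493-5p, 0.13 for miR-337-5p, -0.08 for miR-433-3p and -0.00355 for miR-136-5p, with SEs of 0.32 to 0.47. Leaving out each library in turn moved miR-127-5p between 0.0975 (without P9 replicate 1) and 0.61 (without P9 replicate 3), miR-337-5p between 0.00560 (P3 replicate 1 left out) and 0.41 (P3 replicate 2 left out), and miR-370-3p between 0.12 (without P9 replicate 3) and 0.38 (without P9 replicate 1). The median of the 8 was 0.14, against 0.06 over all miRNAs.

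FFSS and P9 share their controls, so they were also compared directly. All 8 tested miRNAs were lower in FFSS than in P9, with a median log2 fold change of -1.61 against -0.02 over all miRNAs, of which 22.6% were called lower. For 7 of the 8 every FFSS library lay below every P3 and P9 library, against 16.6% of all tested miRNAs. miR-493-5p differed by -2.27 (SE 0.33, edgeR adjusted p = 6.70e-04), miR-370-3p by -2.08 (SE 0.31, edgeR adjusted p = 6.87e-04) and miR-433-3p by -1.74 (SE 0.37, edgeR adjusted p = 0.00350). miR-127-3p followed at -1.63 (SE 0.34, edgeR adjusted p = 0.00319), miR-434-3p at -1.59 (SE 0.33, edgeR adjusted p = 0.00323) and miR-337-5p at -1.43 (SE 0.40, edgeR adjusted p = 0.0160). miR-136-5p differed by -1.41 (SE 0.50, edgeR adjusted p = 0.0457) and miR-127-5p by -1.39 (SE 0.44, edgeR adjusted p = 0.0295). The call on miR-127-5p was lost without P9 replicate 1 (adjusted p = 0.0704), P9 replicate 2 (0.0546) or FFSS replicate 3 (0.0732). That on miR-136-5p was lost without P3 replicate 1 (0.0528), P9 replicate 1 (0.0803), P9 replicate 2 (0.119), FFSS replicate 1 (0.0790) or FFSS replicate 3 (0.152), and without FFSS replicate 2 its difference was -2.31 (0.00633).

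The 2 arms of a hairpin are cut from 1 precursor, so the log2 ratio of 5p to 3p reads shows whether they moved together, free of scaling between libraries. Of the 89 hairpins with a mean of at least 20 reads on each arm 4 belonged here: miR-493, miR-127, miR-434 and miR-136. None of the 4 ratios was called for FFSS against P3, where limma called 4.49% of all hairpins, and none for P9 against P3, where it called 0%. None of the 4 had an unadjusted p under 0.05 in either comparison. The libraries of FFSS and P3 were fully apart in 2 of the 4 ratios (miR-127, higher in FFSS, and miR-434, lower), against 44.9% of the 89 hairpins, and those of P9 and P3 in 2 of the 4 (miR-434 and miR-136, both lower in P9), against 8.99%. In miR-127 the 3p arm dominated, with log2 ratios of -7.68, -7.73 and -7.06 in P3, -6.72, -7.09 and -7.64 in P9, with -6.95, -6.74 and -6.99 in FFSS. The FFSS ratio was higher by 0.60 on average (SE 0.36, limma adjusted p = 0.291). In miR-434, whose 3p reads carry the uncertainty over miR-3543 given above, the 5p arm led. The ratios were 1.10, 1.20 and 1.29 in P3, 0.45, 1.08 and 0.95 in P9, with -0.11, 1.02 and 0.83 in FFSS. FFSS replicate 1 stood apart from the other libraries. The FFSS difference of miR-434 was -0.61 (SE 0.38, limma adjusted p = 0.295), and -0.27 without FFSS replicate 1. The FFSS difference was -0.37 for miR-136 (SE 0.34, limma adjusted p = 0.481) and -0.02 for miR-493 (SE 0.40, limma adjusted p = 0.960). At P9 the differences were 0.34 for miR-127, -0.37 for miR-434, -0.51 for miR-136 and 0.03 for miR-493, each with a limma adjusted p of 0.989.

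**Figure D3:**
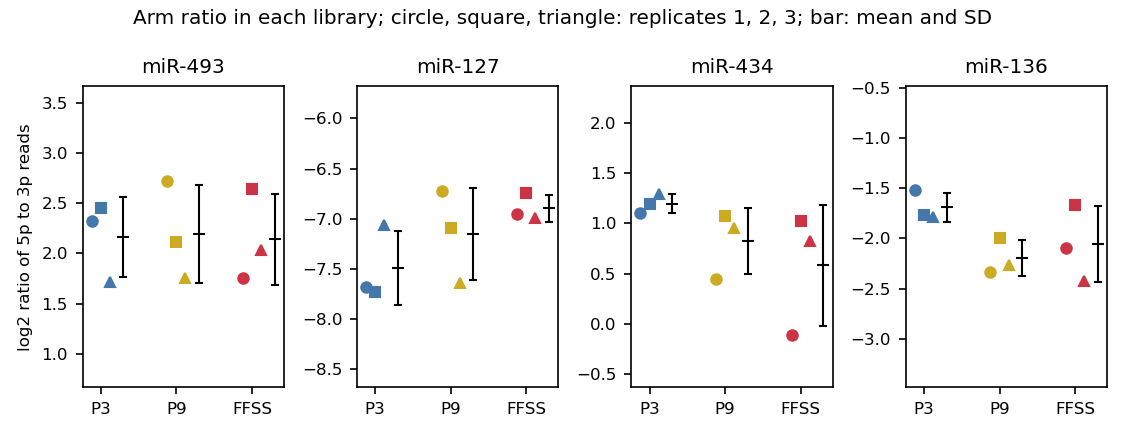
Log2 ratio of 5p to 3p reads in each library for the hairpins miR-493, miR-127, miR-434 and miR-136, with 1 point per library and the group mean with its SD, on axes of equal span. The miR-127 points lie between -7.73 and -6.72, and the miR-434 point of FFSS replicate 1 lies at -0.11.

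Other products between Meg3 and Rian, from the partner arms and neighbouring hairpins, were read from a list of 17, of which 11 were tested. Under shear stress 5 of the 11 fell and none rose, with a median log2 fold change of -1.40, where 13.7% of all 439 tested miRNAs were called lower. Beside miR-493-3p and miR-434-5p these were miR-540-3p (38.9 ± 9.71 to 17.3 ± 8.36 CPM; -1.22, edgeR adjusted p = 0.0341), miR-431 (50.3 ± 7.24 to 26.4 ± 9.95 CPM; -0.99, edgeR adjusted p = 0.0488) and miR-673-3p (3.91 ± 0.63 to 0.475 ± 0.704 CPM; -3.13, edgeR adjusted p = 0.00947). miR-673-3p rested on 0, 1 and 5 reads in FFSS, and its log2 fold change was -5.05 without FFSS replicate 3. miR-540-3p did not pass once P3 replicate 1 (adjusted p = 0.0852), P3 replicate 2 (0.0734) or FFSS replicate 3 (0.0526) was left out. miR-431, whose hairpin also faces Rtl1, was lost in 14 of 24 alternatives, among them without P3 replicate 1 (0.0954), P3 replicate 2 (0.0948), P3 replicate 3 (0.0594), P9 replicate 2 (0.0574), FFSS replicate 1 (0.0673) or FFSS replicate 3 (0.108).

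Of those that did not pass, miR-341 stood at 71.6 ± 12.8 CPM in P3 and 28.6 ± 19.4 in FFSS (log2 fold change -1.40, edgeR adjusted p = 0.0730; 0.0174 without P9 replicate 3). miR-770-3p stood at 15.8 ± 7.94 and 5.45 ± 3.92 CPM (-1.63, edgeR adjusted p = 0.0718; 0.0454 without P9 replicate 1 and 0.0165 without P9 replicate 3). miR-3544, which faces miR-337-5p on the other strand, stood at 1.21 ± 0.0906 and 1.06 ± 0.633 CPM (-0.11, SE 0.56, edgeR adjusted p = 0.907) on 1 to 14 reads per library. miR-673-5p stood at 1.33 ± 0.292 and 1.34 ± 1.31 CPM (-0.06, SE 0.62, edgeR adjusted p = 0.958). At passage 9 none of the 11 was called, and their median was 0.22.

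The miR-379 to miR-410 cluster was listed with 66 products, of which 48 were tested. Under shear stress 26 were lower and none higher, where 13.7% of all 439 tested miRNAs were called lower. The median log2 fold change was -1.52, beside -1.55 for the 8 miRNAs near Rtl1. The count was 17 when P3 replicate 1, P3 replicate 2 or FFSS replicate 3 was left out. By abundance its first 4 were miR-379-5p (516 ± 25.2 to 272 ± 120 CPM; -0.98, edgeR adjusted p = 0.0543), miR-411-5p (347 ± 72.9 to 131 ± 71.7 CPM; -1.47, edgeR adjusted p = 0.0210), miR-541-5p (331 ± 74.7 to 73.5 ± 29.8 CPM; -2.22, edgeR adjusted p = 0.00674) and miR-134-5p (106 ± 20.1 to 57.0 ± 15.8 CPM; -0.94, edgeR adjusted p = 0.0440). miR-379-5p passed without P9 replicate 1 (0.0397), P9 replicate 3 (0.0174) or FFSS replicate 2 (0.0126). miR-411-5p was lost without P3 replicate 1 (0.0526), and miR-134-5p without P3 replicate 1 (0.0939), P3 replicate 2 (0.0948), P9 replicate 2 (0.0549), FFSS replicate 1 (0.0652) or FFSS replicate 3 (0.108). At passage 9 the cluster had 0 of 48 called by edgeR and 2 with an unadjusted p under 0.05, with a median of 0.40. Of the 37 hairpins listed for the cluster and counted here, 29 were found by name in RefSeq on chromosome 6 between Meg3 and Dio3. The place of the others is not given here. Products such as miR-409a-3p and miR-409b had nearly equal log2 fold changes under shear stress (-1.93 and -1.92) and may not be separate. The summed CPM of the 9 miRNAs was 1.18 to 1.40 times that of the cluster in P3, 0.799 to 1.11 times in P9 and 0.966 to 1.29 times in FFSS. Every P9 ratio lay below every P3 ratio, and the FFSS range overlapped both other groups. This ratio was not tested.

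**Figure D4:**
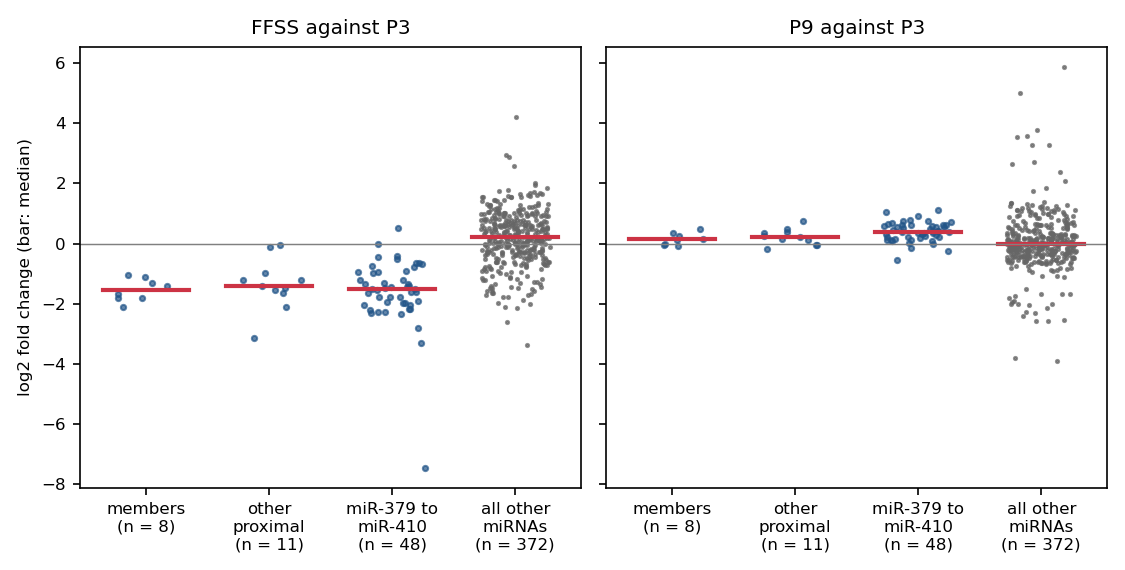
Log2 fold change of every tested miRNA in FFSS against P3 and P9 against P3, by list: the miRNAs near Rtl1, other products between Meg3 and Rian, the miR-379 to miR-410 cluster and all other tested miRNAs. In FFSS the medians of the first 3 lists are -1.55, -1.40 and -1.52. The lowest point, at -7.45, is miR-154-3p, named after its value was seen, which had 0 reads in FFSS, so its fitted value is no bound.

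Across the 9 libraries the tested miRNAs varied together, with pairwise Pearson correlations of log2 CPM (TMM scaled) from 0.71 to 0.97 and a median of 0.91. The closest to the mean of the others was miR-127-3p (r = 0.987) and the farthest miR-136-5p (r = 0.846). Among 274 other miRNAs with a mean of at least 10 CPM, the 5 with the most similar pattern were miR-1193-3p (r = 0.983), miR-329-5p (r = 0.982), miR-382-3p (r = 0.978), miR-3592 (r = 0.978) and miR-411-5p (r = 0.977). All 5 fell under shear stress. They were chosen by likeness over these same libraries, where the miRNAs near Rtl1 were low in FFSS, so this is no separate result. Of the 5, 4 are in the miR-379 to miR-410 list. The other, miR-3592, averaged 56.0 CPM beside 56.2 CPM for miR-382-3p, with log2 fold changes of -1.963 and -1.965 under shear stress. These nearly equal values may not be separate signals, and whether they share reads was not tested. These correlations describe 9 libraries that share group, depth and scaling.

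The promoter of Meg3, the gene that opens the maternally expressed strand, is shown from RefSeq (GRCr8, chr6:134273806-134274105, plus strand). The window runs from 250 bases before to 50 after the start, and its part in the result was not tested. Both strands were searched for TGACGTCA (the cAMP response element), TATAAA (the TATA box) and CCAAT, and capitals mark the plus-strand matches.
Meg3 promoter: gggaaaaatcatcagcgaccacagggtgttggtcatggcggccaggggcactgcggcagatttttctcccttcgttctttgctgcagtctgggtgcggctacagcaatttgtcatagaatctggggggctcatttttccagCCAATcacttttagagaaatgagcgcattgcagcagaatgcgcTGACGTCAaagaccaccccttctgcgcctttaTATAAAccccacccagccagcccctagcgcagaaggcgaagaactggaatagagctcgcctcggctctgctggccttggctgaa
The cAMP response element lies 66 bases before the start and is held by 1.83% of 33469 rat promoter windows of this length. TATAAA lies 34 bases before the start, with an overlapping match 38 bases before it on the minus strand (14.2% of windows), and CCAAT 109 bases before it (37.5%). These matches describe the sequence and were not measured here.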

How the data were processed

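Small RNA was sequenced in 9 libraries. The submitters' processing notes name Bowtie and the build Rnor_6.0, without roles or versions. Not given in the sources used here were the counting program and the miRNA annotation release. The deposited table gave a read count per miRNA and library, per the file headers, and the authors' TPM value. The TPM values matched counts divided by library totals (CPM) within 4.85e-05, so levels are written as CPM.

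The deposited counts were tested with edgeR 4.0.16 (robust quasi-likelihood, TMM scaling) in R 4.3.3. The filter filterByExpr kept 439 of 726 miRNAs, and the others held 0.00685% of reads. All 9 libraries entered 1 model by group, and p-values were adjusted by Benjamini-Hochberg over the 439, with calls at 0.05. The SE is the absolute log2 fold change divided by the square root of the F statistic. The log2 ratio of both arms, after adding 0.5 to each count, was compared with limma 3.58.1 over the 89 hairpins whose arms each averaged 20 counts or more. Simulated counts with known changes were used to check the code.

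The miRNAs and lists were chosen with earlier results of these data known. All 9 miRNAs are named; other products between Meg3 and Rian are named from a mean of 1 CPM, the miR-379 to miR-410 cluster by its 4 most abundant products, and the 5 most similar miRNAs by Pearson correlation. Others were named after their values were seen. There were 24 alternatives per miRNA and comparison: other scalings and filters, DESeq2 1.42.0, limma-voom, log2(TPM + 1) and log2(TPM + 10) in limma, only the 2 groups compared, a replicate block, thinning, and leaving out each library. Merging identical counts was chosen after seeing the data. Depth ranged from 2878910 to 8862560 reads per library. Limits from 3 counts cover counting error only, since the labels name no molecular identifiers. No p-value is given for correlations or lists.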

Additional observations from a re-analysis of the deposited data

How the results depend on the processing

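Over the 24 alternatives the number of the 8 miRNAs called lower in FFSS against P3 stayed between 4 and 8 (main value 6): 4 with library size alone and with P3 replicate 1, P3 replicate 2 or FFSS replicate 3 left out, and 8 without P9 replicate 3. Against P9 it was 6 to 8 (main value 8), and P9 against P3 gave 0 of 8 throughout. Correlations of deviations ran from -0.50 to 0.14 over 9 same-numbered pairs. Differently numbered libraries gave -0.53 (P3 replicate 2 with P9 replicate 1) and 0.50 (P3 replicate 2 with P9 replicate 3). With 3 libraries a group these values cannot tell whether numbers paired samples, and this was not tested. With the replicate block the counts were 5, 8 and 0, the replicate block losing miR-434-3p against P3 (adjusted p = 0.0564). miR-337-5p was lost with library size alone (0.0605) and a mean of at least 50 counts (0.0556), miR-434-3p with library size alone (0.0616), log2(TPM + 1) (0.0507) and log2(TPM + 10) (0.0531). miR-136-5p passed with TMM without the locus (0.0412), no filter (0.0296), DESeq2 (0.0293), log2(TPM + 1) (0.0468) and only the 2 groups (0.0356). Against P9, only the 2 groups compared lost miR-127-5p (0.0652) and miR-136-5p (0.0783), and library size alone (0.0538) and thinning (0.0539) lost miR-136-5p. On log2(TPM + 10) the FFSS against P3 values of miR-127-5p and miR-136-5p shrank to -0.53 and -0.58, and against P9 those of miR-433-3p, miR-127-5p and miR-136-5p to -1.15, -0.69 and -0.54; miR-673-3p was -1.83 on log2(TPM + 1) and -0.41 on log2(TPM + 10). Other products between Meg3 and Rian called lower numbered 2 to 8 (main value 5): 3 with library size alone, a mean of at least 50 counts, log2(TPM + 1) and the replicate block, 8 with no filter, DESeq2, only the 2 groups or without P9 replicate 3, and 2 with P3 replicate 1, P3 replicate 2 or FFSS replicate 3 left out. The miR-379 to miR-410 count was 17 to 35 (main value 26), 17 with a mean of at least 50 counts. TMM without the locus moved the median of all miRNAs by -0.20 (FFSS against P3, where the median of the 8 became -1.75) and -0.26 (FFSS against P9, -1.86), and turned 30 higher and 60 lower calls over all miRNAs into 13 and 78, and 52 and 99 against P9 into 30 and 113; upper-quartile factors gave 77 and 94 against P9, with a shift of 0.11 and a median of -1.51 for the 8. Against P3 the replicate block gave 9 and 42, no filter 15 and 76, a mean of at least 50 counts 23 and 39, and only the 2 groups 51 and 73. Signs turned only for small differences that passed no test. In P9 against P3, miR-433-3p became 0.0205 and miR-127-3p 0.0472 with a mean of at least 50 counts, and miR-136-5p 0.113; miR-136-5p was 0.0540 with TMM without the locus, 0.00132 with no filter and 0.0238 with identical counts merged. Leaving out each library, P9 against P3 ran from -0.0704 to 0.41 for miR-493-5p, -0.24 to 0.13 for miR-433-3p, -0.18 to 0.0436 for miR-127-3p and -0.21 to 0.29 for miR-136-5p. FFSS against P3 ran from -0.66 to 0.0669 for miR-3544 and from -0.93 to 0.13 for miR-673-5p, which was 0.0100 with library size alone. The miR-493 arm ratio ran from -0.27 to 0.17 in FFSS against P3 and from -0.23 to 0.25 in P9 against P3. The cause of these changes was not tested. With 3 libraries a group, a few reads of miR-337-3p, miR-673-3p and miR-3544 set their values.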
